A study of Mus musculus with 29 samples.

Results

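The S-phase genes are 40 genes that dividing cells turn on to copy their DNA, and all 40 were found in every RNA-seq table of the series. They were chosen as a list of replication and S-phase genes, and they are 40 of 38360 genes listed for the untreated libraries and 40 of 48709 listed for the treated ones. RNA-seq counts were given for the cortex or pallium of C57BL/6J embryos at E17.5. In the untreated experiment, 4 control pallia and 3 dcKO pallia were sequenced. The dcKO carries floxed Baf155 and Baf170, the genes listed as Smarcc1 and Smarcc2, and hGFAP-Cre, which acts in progenitors of the medial pallium first and of the whole pallium later, so that cells outside this lineage keep both genes. In the treated experiment, pregnant mice received vehicle or an agent that the labels name only as Wnt inhibitor, and the embryos fall into the groups WT vehicle (n = 4), dcKO vehicle (n = 4) and dcKO Wnt inhibitor (n = 4), with no WT embryos given the inhibitor. H3K27me3 ChIP-seq peak lists of 4 control and 4 dcKO samples completed the data. The deposited genotype of the untreated and ChIP-seq samples reads dcKO for the controls too, and the groups rest on the letters in the sample names, read as in the tables of the study.

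Replication begins at origins, where the origin complex, Cdc6 and Cdt1 load the Mcm2-7 helicase in G1, and geminin (Gmnn) later blocks Cdt1 so that no origin is licensed again. At the G1/S transition cyclin E (Ccne2) and its kinase release E2F factors from the retinoblastoma proteins, and E2F turns on most genes of this list together. Cdc45 and GINS activate the helicase, primase and the polymerases copy the strands around the sliding clamp Pcna, and the new DNA is packed with fresh histones. In the embryonic cortex these genes are expressed in radial glia and intermediate progenitors, which divide, and are turned down in neurons, which do not. BAF155 and BAF170 are scaffold subunits of the BAF chromatin remodelling complex.

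Several libraries went against their labels. Smarcc1 was at 247, 264, 269 and 248 CPM (counts scaled to the library total, with TMM factors) in the 4 controls, and at 245, 128 and 135 in dcKO libraries 2, 3 and 4. It was at 245, 266, 299 and 256 in WT vehicle libraries 1 to 4, at 136, 242, 133 and 138 in dcKO vehicle and at 214, 252, 139.8 and 173 in dcKO Wnt inhibitor. The library labelled dcKO 2, the library labelled dcKO vehicle 2 and the libraries labelled dcKO Wnt inhibitor 1 and 2 therefore held 80.5 to 95.4% of the mean of their control or WT vehicle group, while the remaining libraries labelled dcKO held 49.8 to 65.1%. Smarcc2 was likewise near the control level in dcKO 2 (98.3% of the control mean) and dcKO vehicle 2 (94.6% of the WT vehicle mean). The other dcKO and dcKO vehicle libraries held 58.1 to 60.0%. In dcKO Wnt inhibitor libraries 1 to 4 Smarcc2 stood at 644, 695, 416 and 586 CPM. These were 88.1, 95, 56.8 and 80.1% of the WT vehicle mean. The library labelled dcKO Wnt inhibitor 4 thus lay in between, with Smarcc1 at 65.1%, and was kept. For each comparison between groups, counts are given below with all libraries first. Counts without the 4 libraries near the control level of Smarcc1 follow. Other values, among them the interaction, the scores and most fold changes, are from all libraries unless stated.

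Same-numbered untreated and vehicle libraries resembled each other. Over 15220 genes, the deviations of a control library from its group mean correlated with those of the same-numbered WT vehicle library at r of 0.20 to 0.55, against -0.35 to 0.14 for libraries of different number. The same comparison of dcKO with dcKO vehicle gave 0.52 to 0.80, against -0.70 to 0.50. The 0.80 is that of the number 2 libraries, both near the control level of Smarcc1, and pairs 3 and 4 gave 0.63 and 0.52. The -0.70 is that of dcKO 3 with dcKO vehicle 2, and the 0.50 that of dcKO 3 with dcKO vehicle 1. The part of the number 2 libraries in this contrast was not tested. These correlations are across genes, which are not independent replicates. The labels do not say whether the same animals served in both experiments, so the vehicle comparison is not treated as a second sample of embryos, and p-values measure only the spread between libraries. Total counts were 11946658 (dcKO 2) to 28391046 in the untreated and 12514443 (WT vehicle 3) to 26600594 in the treated libraries. Neuronal markers summed to 7933 to 11210 CPM and radial glia markers to 1274 to 1771 CPM, with 11 and 8 genes in the lists, so that the defining markers of a cortex were present in each library.

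Promoter sequences of RefSeq (GRCm38.p6, 250 bases before to 50 after the start of the gene) were matched to 30 of the 40 members. They are shown because E2F sites are the sequence feature that this gene class is known for. An E2F-type site was searched as TTTGGCGC, TTTCGCGC or TTTCCCGC on both strands, and matches may overlap. It was found in 11 of 30 member promoters (36.7%), in 16 of 45 promoters of other replication genes (35.6%), in 2 of 46 promoters of G2 and mitosis genes (4.35%) and in 515 of 27025 promoters of all genes (1.91%). The CHR element (TTTGAA), which is known from genes of G2 and mitosis, was in 5 of 30 member promoters (16.7%), near its share in all promoters (18.1%), and in 31 of 46 promoters of G2 and mitosis genes (67.4%). A CCAAT box was in 21 of 30 member promoters (70.0%) and in 37.9% of all. It was also in 24 of 45 promoters of other replication genes (53.3%) and in 36 of 46 of G2 and mitosis genes (78.3%), so it is not particular to the members. The median GC content was 59.2% in the member promoters and 52.7% in all promoters, which bears on how often GC-rich letters occur. A match is a description of these letters and not a measured binding site.
Of the members among the 5 with the smallest p per direction in at least 1 comparison, Tyms, Ung, Nasp, Prim1, Uhrf1, Rrm2, Blm and Brip1 were matched and held no such site. Mcm5, Mcm6, Cdca7, Dtl, Casp8ap2 and Ubr7 were also among them and held an E2F-type match. The first 4 are printed below 5′ to 3′ in the direction of the gene, with the E2F-type matches in capitals. Casp8ap2 and Ubr7, which were among the negative members, are not printed.
Mcm5, chr8:75109259-75109558, plus strand: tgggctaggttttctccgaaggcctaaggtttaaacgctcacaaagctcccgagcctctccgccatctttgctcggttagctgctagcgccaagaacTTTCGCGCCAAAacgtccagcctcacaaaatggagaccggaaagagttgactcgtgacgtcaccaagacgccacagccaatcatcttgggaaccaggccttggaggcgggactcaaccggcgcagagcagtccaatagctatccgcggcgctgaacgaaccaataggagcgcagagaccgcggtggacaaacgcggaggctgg
Mcm6, chr1:128359656-128359955, minus strand: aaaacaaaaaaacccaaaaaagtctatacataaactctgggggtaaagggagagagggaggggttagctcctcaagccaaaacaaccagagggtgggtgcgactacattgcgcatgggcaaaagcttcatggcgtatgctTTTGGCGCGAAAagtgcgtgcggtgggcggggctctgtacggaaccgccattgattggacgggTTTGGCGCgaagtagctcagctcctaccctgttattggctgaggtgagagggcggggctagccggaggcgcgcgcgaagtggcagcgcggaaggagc
Cdca7, chr2:72475969-72476268, plus strand: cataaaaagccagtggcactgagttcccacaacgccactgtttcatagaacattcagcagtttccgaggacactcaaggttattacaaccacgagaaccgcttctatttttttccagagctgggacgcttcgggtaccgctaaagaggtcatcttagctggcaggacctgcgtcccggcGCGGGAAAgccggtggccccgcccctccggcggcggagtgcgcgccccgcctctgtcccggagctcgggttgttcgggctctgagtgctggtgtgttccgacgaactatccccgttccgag
Dtl, chr1:191575495-191575794, minus strand: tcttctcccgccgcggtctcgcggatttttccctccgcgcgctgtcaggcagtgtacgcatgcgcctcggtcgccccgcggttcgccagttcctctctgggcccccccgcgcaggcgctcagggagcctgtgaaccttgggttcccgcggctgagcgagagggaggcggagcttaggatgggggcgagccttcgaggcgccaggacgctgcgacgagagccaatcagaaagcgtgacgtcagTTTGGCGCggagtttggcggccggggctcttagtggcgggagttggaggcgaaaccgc
Counted from the start of the gene, the match of Cdca7 lay at -71 to -64 and that of Dtl at -8 to -1. Mcm5 held 2 matches that overlap between -153 and -142. Mcm6 held 3, of which 2 overlap between -110 and -99 and 1 lay at -47 to -40. The others with a match were Casp8ap2, Cdc6, Clspn, Hells, Pola1, Pold3 and Ubr7. Mcm4, Gins2, Rfc2, Gmnn, Ccne2, Atad2, Exo1, Tipin, Dscc1 and Usp1 were not among the matched promoters.

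**Figure D1:**
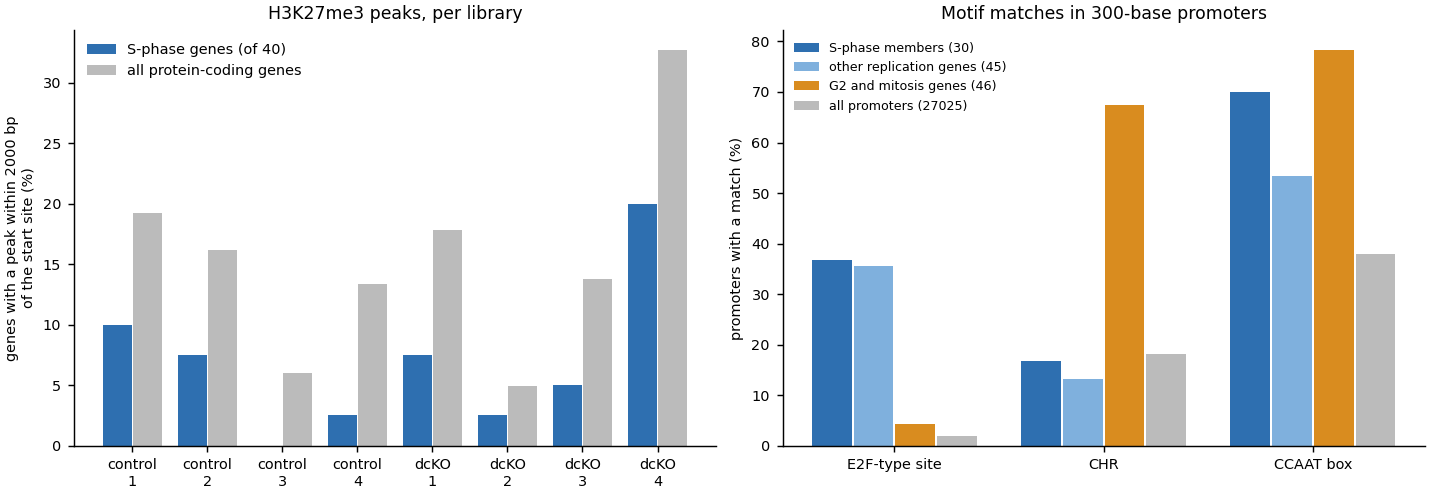
Left, percent of the 40 S-phase genes (blue) and of 21938 protein-coding genes (grey) with an H3K27me3 peak within 2000 bp of the start site in each of the 8 ChIP-seq libraries. Right, percent of promoters with a match to an E2F-type site, a CHR or a CCAAT box in 4 gene lists, with the number of promoters in brackets. The S-phase genes lie below all genes in each ChIP-seq library, and the E2F-type site is in 36.7% of their promoters against 1.91% of all promoters.

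Levels divided by exon length, the scale on which genes can be compared, ranged from 0.375 to 35.1 CPM per kilobase among the members in the controls. Nasp, a chaperone of new histones, had the highest mean in the controls (35.1 CPM per kilobase ± 1.42, SD, n = 4), followed by Ubr7, a ubiquitin ligase of histones (22.8 ± 0.670), and Rrm2, the small subunit of ribonucleotide reductase (18.8 ± 2.57). Pcna (16.3 ± 1.39) stood next to Rrm2 within their spread. The lowest values were those of Fen1, the flap endonuclease (0.375 ± 0.126), Dscc1, a subunit of a clamp loader (0.539 ± 0.0338), and Brip1, a helicase that binds BRCA1 (0.735 ± 0.0505). Of the exon sequence of Fen1, 84.2% is shared with other annotated genes, among them Tmem258, and of that of Gins2 67.3% is shared with Gse1. The TruSeq RNA v2 kit does not mark strand, so that reads of these 2 genes could not be told from those of their neighbours, and their values are uncertain. The other 7 members with shared exon sequence have 4.49 to 17.4% of it shared.

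The first comparison asks whether loss of BAF155 and BAF170 was accompanied by a change of S-phase genes in the untreated pallium. None of the 40 members was called higher or lower in dcKO than in control at an adjusted p under 0.05 in edgeR, while 0.00634% of all 15770 genes tested were called. The members nevertheless leaned upward: 31 of 40 had a positive log2 fold change (77.5%, against 51% of all genes), and their median was 0.11, against 0.004 for all genes. At an unadjusted p under 0.05, 7 of 40 members were higher, against 7.91% of all genes, and 0 were lower. DESeq2 called 1 member, Atad2, at an adjusted p of 0.0289, among 548 genes called of 14230, and gave 7 members higher at an unadjusted p under 0.05. The share of all genes at an unadjusted p is not given for DESeq2, so its member counts there cannot be set against it. Since this is bulk tissue, more dividing cells and more RNA per cell cannot be told apart.

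Atad2, an AAA ATPase that binds newly made acetylated histones, had the smallest p. It stood at 33.2, 31.3, 41.1 and 31.8 CPM in controls 1 to 4 and at 40.9, 47.9 and 49.5 in dcKO 2 to 4, and the groups overlapped by control 3 against dcKO 2. The log2 fold change was 0.43 ± 0.11 (SE), with an adjusted p of 0.147. Usp1, the deubiquitinase of Pcna, was at 47.9, 43.1, 47.9 and 45.2 CPM in the controls and at 58.2, 50.7 and 52.7 in dcKO. Each dcKO library lay above each control, with a log2 fold change of 0.22 ± 0.071 and an adjusted p of 0.189. Dtl, the receptor of the ubiquitin ligase that removes Cdt1 in S phase, was at 17.4, 17.8, 20.6 and 17.9 in the controls and 22.5, 20.8 and 24.8 in dcKO. The groups did not overlap (0.30 ± 0.097, adjusted p 0.199).

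Tipin, a fork protection factor, was at 26.4, 25.2, 26.6 and 24.9 CPM in the controls and 31.2, 27.6 and 33.7 in dcKO, without overlap (0.26 ± 0.085, adjusted p 0.203). Mcm4, a subunit of the replicative helicase, was at 42.9, 45.5, 48.7 and 45.7 and 50.7, 50.3 and 57.6, again without overlap (0.21 ± 0.073, adjusted p 0.217). With Dscc1, 5 members had all dcKO libraries above all controls (12.5%, against 6.96% of all genes). On the other side, 9 members had negative fold changes, none of which reached an unadjusted p of 0.05. The 5 with the smallest p were Casp8ap2 (FLASH, needed for histone mRNA), Tyms (thymidylate synthase), Nasp, Ccne2 and Gmnn.

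Casp8ap2 was at 65.7, 58.8, 62.4 and 65.8 CPM in the controls and 61.4, 58.1 and 62 in dcKO (-0.06 ± 0.063). Tyms was at 14.9, 16.3, 16.6 and 13.9 and 16.9, 12.5 and 13.6 (-0.12 ± 0.12). In both genes the groups overlapped. Nasp was at 273, 271, 249 and 262 and 277, 238 and 248 (-0.05 ± 0.066). Ccne2, cyclin E2, was at 13.7, 9.84, 13.7 and 14.2 in the controls and 16, 9.24 and 9.81 in dcKO (-0.17 ± 0.21). The high dcKO value is that of library 2, while dcKO 3 and 4 lay below each control. Gmnn was at 6.01, 7.13, 8.08 and 6.55 and 8.31, 4.89 and 6.42, with library 2 again the highest of dcKO (-0.11 ± 0.19). The adjusted p of these 5 genes was 0.667 to 0.818.

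Of the members fixed for each role, Uhrf1, which brings Dnmt1 to newly copied DNA, was at 29.6, 32.5, 39.9 and 28 CPM in the controls and 37, 34 and 39 in dcKO (0.17 ± 0.12). Pcna was at 36.6, 39.8, 43.4 and 36.3 and 47.2, 37.8 and 42.1 (0.11 ± 0.096). Both overlapped, with control 3 above at least 2 of the 3 dcKO libraries. Mcm5 was at 34.3, 40.1, 45.3 and 36.4 and 40.5, 39.3 and 45.2 (0.10 ± 0.10), Rrm2 at 45.9, 48.7, 62.2 and 51.2 and 58.5, 40.9 and 56 (-0.01 ± 0.14). Clspn (claspin), which links stalled forks to the checkpoint kinase Chk1, was at 12.1, 15.4, 14.1 and 13.6 and 15.2, 11.8 and 15.1 (0.02 ± 0.13). None of these 5 differed beyond the spread between libraries, with adjusted p of 0.523 and above.

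Without the library labelled dcKO 2, 2 members were called higher and 0 lower, when 5.57% of 16024 genes were called higher, so the share of members called (5.0%) was near that of all genes. The called members were Atad2 (0.50 ± 0.11, adjusted p 0.0142) and Cdca7 (0.61 ± 0.14, adjusted p 0.0203). Cdca7, the zinc finger partner of the remodelling enzyme Hells, was at 34.4, 36.3, 42.4 and 28 CPM in the controls and at 32.6, 50.3 and 57.8 in dcKO 2, 3 and 4, so that dcKO 3 and 4 lay above each control and library 2 within them. Ccne2 went the other way in this fit (-0.44 ± 0.15, adjusted p 0.0935). The median of the members was 0.09 and 30 of 40 were positive (75%, against 49.9% of all genes). Markers of other cells differed along with the groups. In this same fit, 4 of 8 radial glia, 4 of 6 interneuron and 1 of 4 oligodendrocyte precursor markers were called higher. Called lower were 1 of 8 radial glia, 2 of 5 intermediate progenitor, 4 of 11 neuronal and 1 of 6 endothelium and pericyte markers. With all libraries, the 8 radial glia markers summed to 1274 to 1373 CPM in control and 1362 to 1485 in dcKO, the 11 neuronal markers to 9901 to 10860 and 8815 to 10286, and the 6 markers of endothelium and pericytes to 270.0 to 316 and 237 to 266. Their part in the S-phase values was not tested.

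The same question was put to the embryos of vehicle-treated mothers. None of the 40 members was called in dcKO vehicle against WT vehicle in edgeR, and DESeq2 called 0 too, while 0.00611% of 16372 genes were called in edgeR. Again 31 of 40 members were positive (77.5%, against 49.3% of all genes), with a median of 0.10 against -0.003 for all genes. At an unadjusted p under 0.05 in edgeR, 3 members were higher (7.5%, against 4.14% of all genes) and 0 lower. DESeq2 gave 4 higher, with no share of all genes given. Since same-numbered libraries of both experiments resembled each other, this is not an independent repeat.

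Cdca7 had the smallest p here, at 32.8, 32.4, 34.8 and 26.5 CPM in WT vehicle 1 to 4 and 52.6, 27.3, 47 and 51 in dcKO vehicle 1 to 4. Libraries 1, 3 and 4 of dcKO vehicle lay above each WT library, and library 2, the one at the WT level of Smarcc1, lay below most of them (0.49 ± 0.19, adjusted p 0.4). Without dcKO vehicle 2 alone, Cdca7 was called higher (log2 fold change 0.67, adjusted p = 0.0175). With dcKO Wnt inhibitor 1 and 2 left out as well, it was at 0.67 ± 0.11 (adjusted p 0.00454), the 1 of 40 members called (2.5%), when 2.47% of all genes were called higher. Mcm4 was at 37.3, 44, 47.4 and 40.3 in WT vehicle and 49.5, 51.8, 50.8 and 51.4 in dcKO vehicle, without overlap (0.27 ± 0.11, adjusted p 0.46). Ung, the glycosylase that removes uracil from new DNA, was at 9.05, 7.63, 6.53 and 8.1 and 8.16, 11.2, 9.28 and 10.9, with overlap (0.33 ± 0.15, adjusted p 0.51).

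Mcm5 was at 44.7, 40.9, 39.5 and 40.4 CPM in WT vehicle and 49, 48.4, 43.4 and 47.1 in dcKO vehicle, where WT vehicle 1 overlapped with dcKO vehicle 3 (0.18 ± 0.089). Uhrf1 was at 34.8, 33.6, 34.7 and 30.5 and 39.6, 39, 35.4 and 42.1, each dcKO vehicle library above each WT one (0.22 ± 0.12). Mcm4, Uhrf1 and the exonuclease gene Exo1 were the 3 members without overlap (7.5%, against 3.08% of all genes). The 9 negative members had adjusted p of 0.904 and above, and the 5 first by p were Ubr7, Nasp, Ccne2, Rrm2 and Gmnn. Ubr7 was at 64.8, 70.9, 79 and 67.1 in WT vehicle and 66.9, 71.5, 66.1 and 61.1 in dcKO vehicle (-0.08 ± 0.089). Nasp was at 215, 234, 297 and 219 and 226, 238, 222 and 221 (-0.09 ± 0.10). In both, WT vehicle 3 was the highest library of the 8.

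Ccne2 varied more between libraries than any other member in the treated experiment, with 3.84, 9.21, 16.7 and 9.53 CPM in WT vehicle and 3.88, 11.8, 8.5 and 8.58 in dcKO vehicle (-0.25 ± 0.38). Library 1 was the lowest of each group. Rrm2 was at 43.7, 47.5, 65.3 and 48.2 and 45.9, 55.8, 43.7 and 51.8 (-0.05 ± 0.13), and Gmnn at 4.6, 5.48, 7.61 and 4.84 and 5.55, 5.52, 4.23 and 6.29 (-0.05 ± 0.18). In these as well, WT vehicle 3 was the highest. Pcna was at 39.2, 37.8, 46.9 and 36.4 and 37.8, 45.1, 38.3 and 41.5 (0.02 ± 0.12), and Clspn at 12.6, 13, 14.6 and 11 and 13, 13.2, 11.5 and 14.1 (0.02 ± 0.12). The groups overlapped throughout and no difference exceeded its error. Markers of endothelium and pericytes summed to 271 to 300.1 CPM in WT vehicle and 224 to 249 in dcKO vehicle, and neuronal markers to 8771 to 11210 and 7933 to 9667. Without the libraries near the WT level of Smarcc1, 2 of 6 interneuron and 1 of 4 oligodendrocyte precursor markers were called higher. Called lower were 1 of 8 radial glia, 2 of 5 intermediate progenitor, 2 of 11 neuronal and 1 of 6 endothelium and pericyte markers. Their part in these values was not tested.

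**Figure D2:**
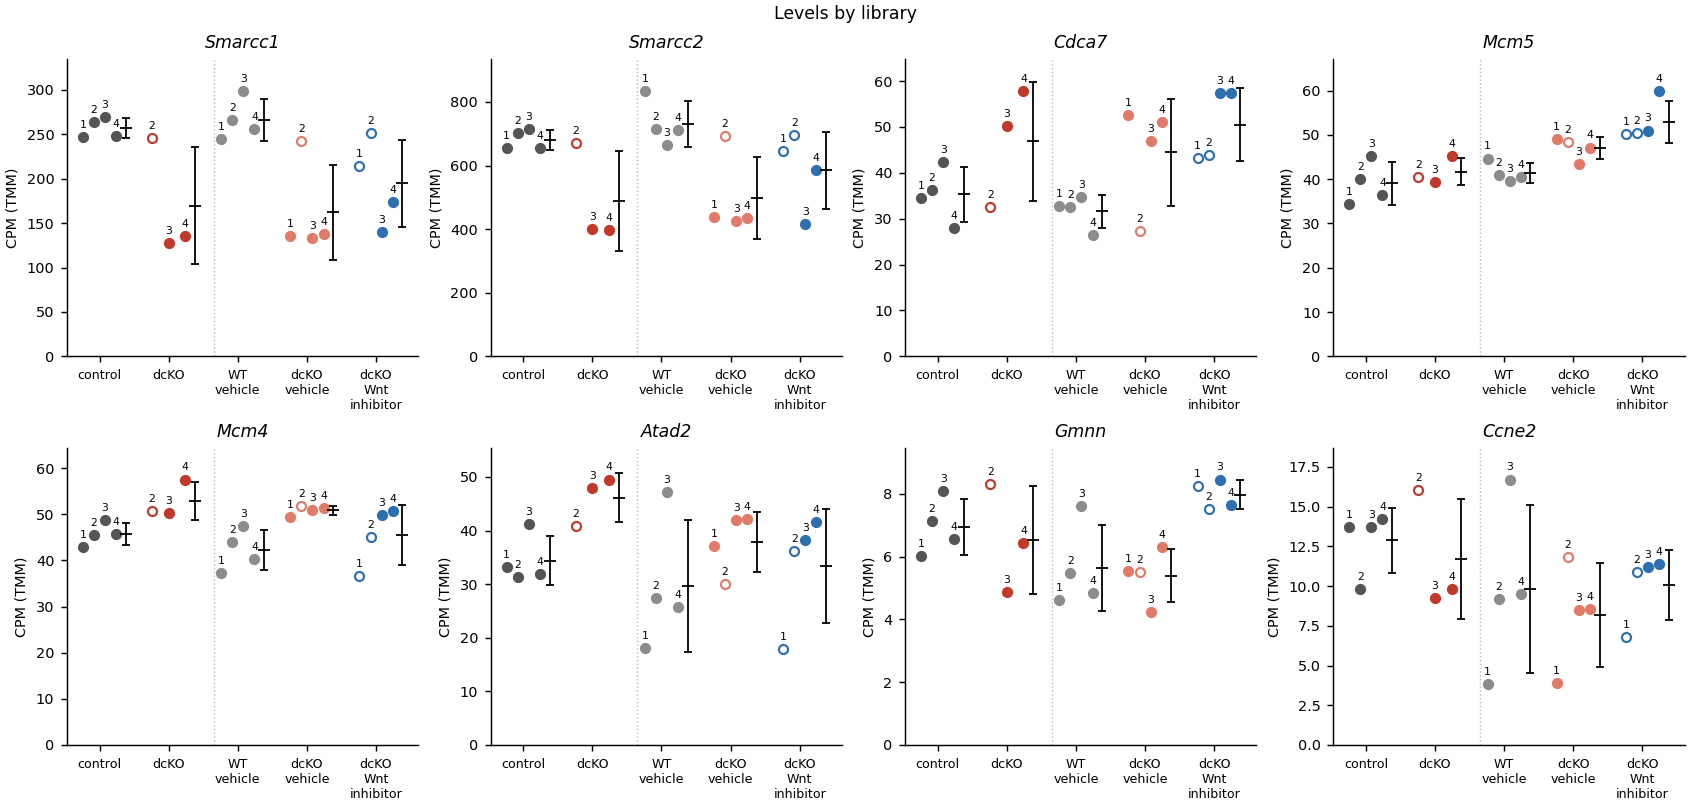
CPM with TMM factors of Smarcc1, Smarcc2 and 6 S-phase genes in each of the 19 RNA-seq libraries, numbered by replicate. Open circles are the 4 libraries labelled dcKO with Smarcc1 near the control level, bars to the right of each group are mean and SD, and the dotted line parts the untreated from the treated experiment. The filled dcKO libraries of Cdca7 lie between 47.0 and 57.8 CPM, above each control and WT vehicle library.

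The third comparison asks what the Wnt inhibitor was accompanied by within dcKO. No member was called in dcKO Wnt inhibitor against dcKO vehicle, in edgeR or in DESeq2, and 0.055% of 16372 genes were called in edgeR. Of the members, 26 of 40 were positive (65.0%, against 51.8% of all genes), with a median of 0.06 against 0.01. In edgeR 3 members were higher at an unadjusted p under 0.05 (7.5%, against 7.85% of all genes) and 0 lower. A count this near to that of all genes is not a result about the S-phase genes. In DESeq2 2 were higher, with no share of all genes given.

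Gmnn, the inhibitor of licensing, was at 5.55, 5.52, 4.23 and 6.29 CPM in dcKO vehicle and 8.25, 7.52, 8.46 and 7.65 in dcKO Wnt inhibitor. Each inhibitor library lay above each dcKO vehicle library (0.56 ± 0.17, adjusted p 0.191). Tyms was at 15.1, 15.2, 13.5 and 14.5 and 18.7, 17.2, 16.7 and 17.3, without overlap (0.26 ± 0.12, adjusted p 0.293). Nasp was at 226, 238, 222 and 221 and 272, 259.7, 272 and 252, without overlap (0.22 ± 0.10, adjusted p 0.309). Prim1, the catalytic subunit of primase, was at 28.8, 33.2, 28.4 and 27.5 and 31.5, 34.8, 39.5 and 37.2, where dcKO vehicle 2 overlapped (0.28 ± 0.13, adjusted p 0.322). Mcm5 was at 50.2, 50.5, 51 and 59.9 in the inhibitor libraries, above each dcKO vehicle library (0.17 ± 0.089, adjusted p 0.365). With Tyms, Nasp and Gmnn, 4 of 40 members were free of overlap in this direction, against 4.49% of all genes.

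The 14 negative members were led, by p, by Brip1, Blm, Mcm4, Usp1 and Dtl. Brip1 was at 5.59, 5.61, 5.1 and 6.71 CPM in dcKO vehicle and 3.11, 4.59, 4.47 and 5.46 in dcKO Wnt inhibitor (-0.38 ± 0.21, adjusted p 0.401). Blm, the Bloom helicase, was at 23.9, 23.4, 24 and 25.3 and 16.9, 22.4, 19.7 and 22.9, the 1 member with each inhibitor library below each vehicle library (-0.24 ± 0.16, adjusted p 0.486). Mcm4 was at 36.6, 45.1, 49.9 and 50.7 in the inhibitor libraries (-0.16 ± 0.11), Usp1 at 46.3, 48, 46.8 and 52.6 and 31.6, 43.1, 49.9 and 51.6 (-0.13 ± 0.17), and Dtl at 21.2, 22.3, 19.9 and 27 and 13.5, 22, 21.5 and 23.5 (-0.16 ± 0.22). In Mcm4, Usp1, Dtl, Brip1 and Blm the library labelled dcKO Wnt inhibitor 1 was the lowest. Pcna was at 36.8, 44.5, 51.6 and 47.9 (0.15 ± 0.12), Clspn at 13.1, 15, 14.9 and 16.6 (0.20 ± 0.12) and Uhrf1 at 32.1, 40.6, 37.1 and 47.3 (0.01 ± 0.12). Rrm2 was at 39.7, 49.8, 50.9 and 48.5 (-0.06 ± 0.13) and Ccne2 at 6.82, 10.9, 11.2 and 11.4 (0.30 ± 0.38), all 5 with overlap.

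Without the library labelled dcKO vehicle 2 and those labelled dcKO Wnt inhibitor 1 and 2, this comparison rested on 2 inhibitor and 3 vehicle libraries. Still 0 members were called, when 0.303% of genes were called higher. The median of the members moved to 0.16 and 32 of 40 were positive, against 53.1% of all genes. Within sequencing lane 1 the S-phase score, defined below, differed by -0.14 between the 1 inhibitor library and the 2 vehicle libraries, and within lane 2 by 0.09 (2 against 2 libraries). The direction was not the same in both lanes. These values include the 3 treated libraries near the WT level of Smarcc1, and the lane 1 inhibitor library is dcKO Wnt inhibitor 1. They leave out dcKO Wnt inhibitor 4, alone in lane 3, so lane and these libraries cannot be told apart. Markers of the choroid plexus differed along with the treatment. All 6 had positive fold changes, 5 of them at an unadjusted p under 0.05 and 0 at an adjusted p under 0.05, and their summed level was 12.3 to 850 CPM in dcKO Wnt inhibitor against 7.04 to 11.5 in dcKO vehicle, with none at 0. Their part in these results was not tested.

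Set against WT vehicle, the inhibitor libraries showed the largest median difference of the 4 comparisons. No member was called in edgeR, where 0.0977% of all genes were, and 35 of 40 members were positive (87.5%, against 50.8%), with a median of 0.17 against 0.006. In edgeR 11 members were higher at an unadjusted p under 0.05 (27.5%, against 9.53% of all genes) and 0 lower. DESeq2 called 3 members higher, namely Mcm5 (adjusted p = 0.00953), Cdca7 (0.0264) and Gins2 (0.0459), among 723 genes called of 16574. Genotype and treatment both differ between these groups and cannot be told apart.

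Mcm5 was at 44.7, 40.9, 39.5 and 40.4 CPM in WT vehicle and 50.2, 50.5, 51 and 59.9 in dcKO Wnt inhibitor. The groups did not overlap (0.35 ± 0.089, adjusted p 0.0875 in edgeR). Cdca7 was at 43.3, 43.9, 57.5 and 57.4 in the inhibitor libraries, each above the highest WT library (0.68 ± 0.19, adjusted p 0.105). Gins2, a subunit of GINS whose exons largely overlap with Gse1, was at 6.65, 4.66, 6.2 and 4.96 and 7.36, 7.69, 9.43 and 7.73, without overlap (0.53 ± 0.16, adjusted p 0.122). Gmnn overlapped by WT vehicle 3 (0.51 ± 0.17, adjusted p 0.152). Mcm6 was at 47.1, 51.4, 59 and 61.3 and 65.4, 63.6, 71.8 and 69.5, without overlap (0.31 ± 0.11, adjusted p 0.176). With Cdc45, 5 members were free of overlap (12.5%, against 3.48% of all genes).

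The 5 negative members were Ubr7, Rrm2, Casp8ap2, Blm and Brip1, with adjusted p of 0.597 and above. Ubr7 was at 61.5, 65.4, 70.5 and 67.2 CPM in the inhibitor libraries (-0.09 ± 0.089) and Rrm2 differed by -0.11 ± 0.13. Casp8ap2 was at 34, 48.1, 77 and 51.3 in WT vehicle and 35.3, 58, 47.4 and 48 in dcKO Wnt inhibitor (-0.15 ± 0.20). Blm was at 15.9, 22.3, 27.5 and 17.6 and Brip1 at 2.97, 5.42, 5.38 and 4.18 in WT vehicle, with fold changes of -0.02 ± 0.16 and -0.01 ± 0.21. In 4 of these 5 genes WT vehicle 3 was the highest WT library, and in Brip1 it was the second. Uhrf1 (0.24 ± 0.12), Clspn (0.22 ± 0.12), Pcna (0.18 ± 0.12) and Ccne2 (0.06 ± 0.38) overlapped between the groups.

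Without the 3 treated libraries near the WT level of Smarcc1, 2 members were called higher (5%), when 2.66% of all genes were. They were Cdca7 (0.86 ± 0.12, adjusted p 0.00443) and Mcm5 (0.42 ± 0.11, adjusted p 0.0427). The inhibitor libraries left were 3 and 4, and library 4 had the outlying Mcm5 level of 59.9 CPM. Library 4 also held 80.1% of the WT vehicle mean of Smarcc2. The median was 0.27, with 37 of 40 positive (92.5%, against 51.7% of all genes). At an unadjusted p under 0.05, 15 of 40 members were higher, against 1832 of all 16815 genes. In this same fit 2 of 8 radial glia, 1 of 5 intermediate progenitor, 3 of 6 interneuron and 1 of 6 choroid plexus markers were called higher. Called lower were 1 of 11 neuronal, 1 of 6 microglia and 1 of 6 endothelium and pericyte markers. With all libraries, radial glia markers summed to 1440 to 1771 CPM in dcKO Wnt inhibitor and 1311 to 1452 in WT vehicle, neuronal markers to 8015 to 9482 and 8771 to 11210. Choroid plexus markers summed to 12.3 to 850 and 6.78 to 130 CPM, interneuron markers to 690 to 896 and 539 to 654, and red blood cell markers to 256 to 313 and 145 to 255. The part of these cell types in the S-phase values was not tested.

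**Figure D3:**
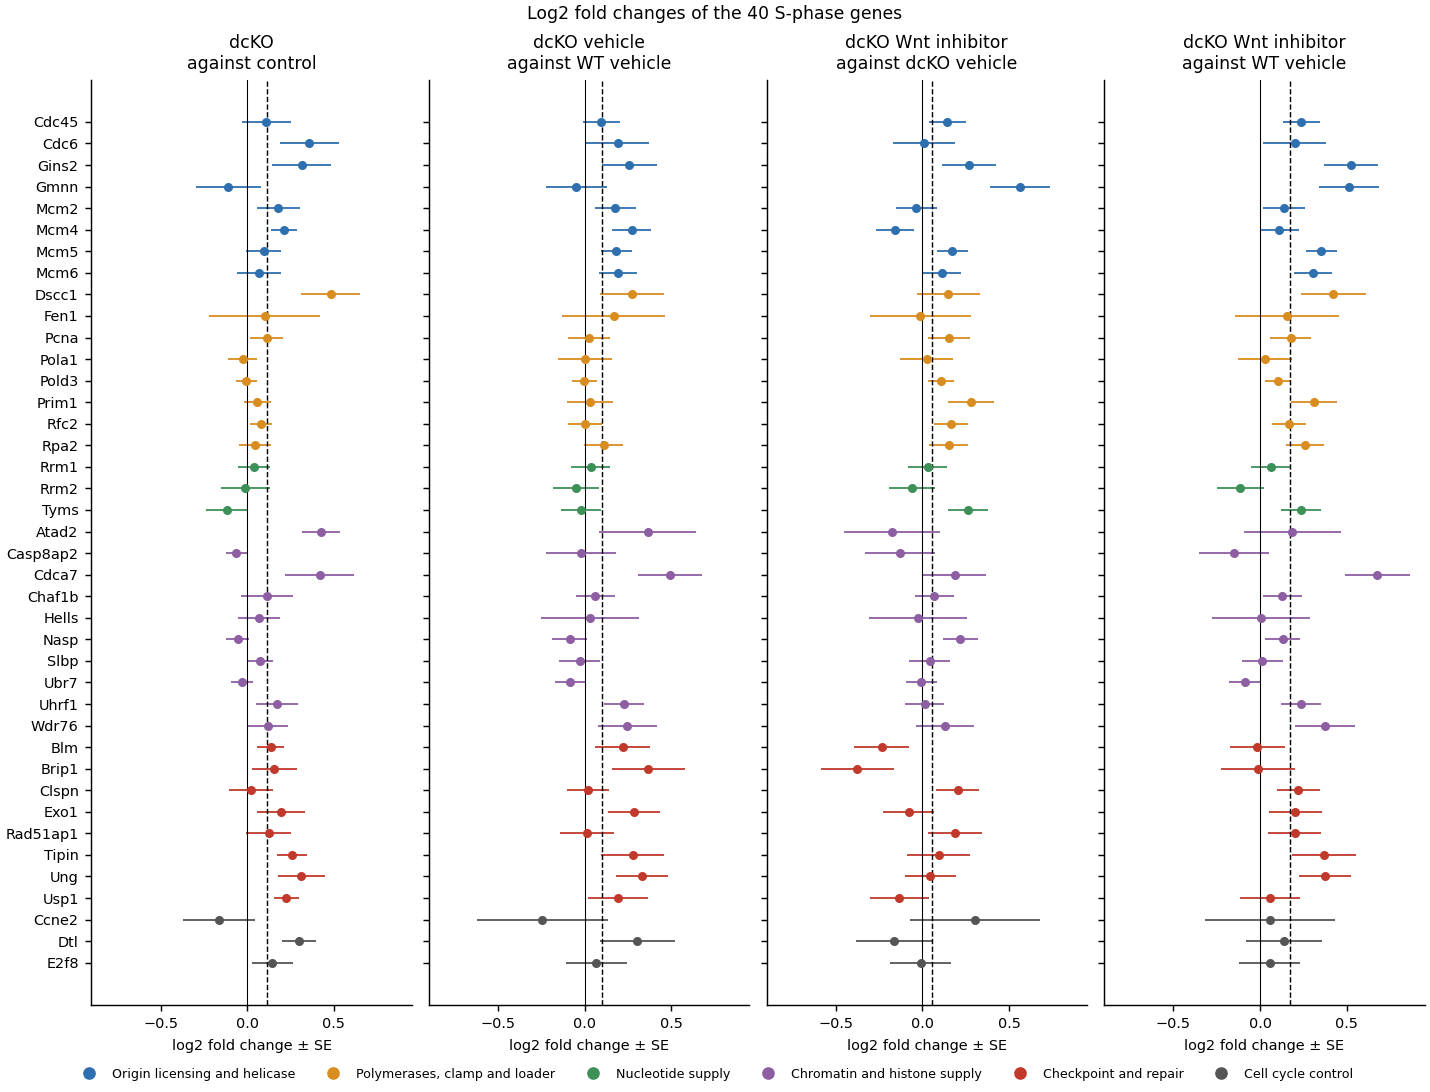
Log2 fold change with SE of the 40 S-phase genes in the 4 comparisons, coloured by role, with a solid line at 0 and a dashed line at the median of the list. The median is 0.11, 0.10, 0.06 and 0.17 from left to right, and no S-phase gene passes an adjusted p of 0.05 in edgeR.

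By role, the 8 licensing and helicase genes had a median log2 fold change of 0.14 in dcKO, 0.19 in dcKO vehicle and 0.27 in dcKO Wnt inhibitor against WT vehicle, with 7, 7 and 8 positive, and of 0.13 against dcKO vehicle. The 8 checkpoint and repair genes were all positive in both dcKO comparisons (medians 0.18 and 0.25), and 4 of 8 were positive in the inhibitor against dcKO vehicle (median -0.02). The 8 genes of polymerases, clamp and loader had medians of 0.07, 0.03, 0.15 and 0.17 in the order of the comparisons above. The 10 genes of chromatin and histone supply ranged most widely in dcKO Wnt inhibitor against WT vehicle, from -0.15 (Casp8ap2) to 0.68 (Cdca7), around a median of 0.13. The 3 nucleotide genes, Tyms, Rrm1 and Rrm2, stayed at medians of -0.01, -0.02, 0.03 and 0.06. These values are from all libraries, where no role held a member called in edgeR. Without the libraries near the control level of Smarcc1, the called members were of chromatin and histone supply and, with Mcm5, of licensing and helicase. In those fits 7 of 8 checkpoint and repair genes were positive in each dcKO comparison. Of the licensing and helicase genes 6 and 7 of 8 were, and the nucleotide genes had a median of -0.11 in dcKO against control.

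The members not described above, except 1 that is counted but not described, gave the following log2 fold changes, in the order dcKO against control, dcKO vehicle against WT vehicle, dcKO Wnt inhibitor against dcKO vehicle and dcKO Wnt inhibitor against WT vehicle. Among the licensing and helicase genes, Mcm2 was at 0.18, 0.18, -0.04 and 0.14, Cdc6, which loads the helicase, at 0.36, 0.19, 0.01 and 0.20, and Cdc45, which joins it at firing, at 0.11, 0.10, 0.14 and 0.24. Among the genes of synthesis, Pola1 was at -0.03, 0.00, 0.02 and 0.03, Rfc2, a subunit of the loader of Pcna, at 0.08, 0.00, 0.17 and 0.17, and Rpa2, which coats single strands, at 0.05, 0.11, 0.15 and 0.26. The values of these 6 genes lay between -0.04 (Mcm2) and 0.36 (Cdc6). Dscc1 was at 0.48, 0.27, 0.15 and 0.42 and Fen1, with its shared exons, at 0.10, 0.17, -0.01 and 0.16. Rrm1, the large subunit of ribonucleotide reductase, was at 0.04, 0.03, 0.03 and 0.06.

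Among the genes of chromatin and histone supply, Chaf1b, a subunit of the chaperone CAF-1, was at 0.11, 0.06, 0.07 and 0.13, Slbp, which binds histone mRNA, at 0.07, -0.03, 0.04 and 0.01, Hells at 0.07, 0.03, -0.03 and 0.00 and Wdr76 at 0.12, 0.24, 0.13 and 0.38. Among the genes of repair, Exo1 was at 0.19, 0.28, -0.08 and 0.20. E2f8 was at 0.15, 0.07, -0.01 and 0.06. None of these genes had an adjusted p under 0.05 in edgeR in any of the 4 comparisons.

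The S-phase score of a library is the mean over the 40 members of log2 CPM minus the mean of that member in the experiment. It was -0.11, -0.061, 0.101 and -0.142 in controls 1 to 4 and 0.114, -0.035 and 0.133 in dcKO 2 to 4. In the treated experiment it was -0.292, -0.068, 0.136 and -0.204 in WT vehicle, -0.018, 0.072, -0.062 and 0.112 in dcKO vehicle, and -0.117, 0.089, 0.141 and 0.212 in dcKO Wnt inhibitor. The groups overlapped in each comparison. Control 3 and WT vehicle 3 stood above the other libraries of their groups, with 35 and 26 of 40 members above the mean of the experiment, while WT vehicle 1 and 4 had 4 and 3. Members above the mean numbered 33, 14 and 32 in dcKO 2 to 4, and 20, 29, 13 and 26 in dcKO vehicle 1 to 4. In both groups library 2, near the control level of Smarcc1, had the most and library 3 the fewest. The spread within WT vehicle (SD 0.186, n = 4) was larger than the difference between the means of dcKO vehicle (0.026) and WT vehicle (-0.107). Within lane 1, dcKO vehicle was above WT vehicle by 0.21, and within lane 2 by 0.06, with 2 against 2 libraries in each. Against WT vehicle, the inhibitor libraries were higher by 0.06 in lane 1 (1 against 2) and by 0.15 in lane 2 (2 against 2). The lane values include the libraries near the WT level of Smarcc1 and leave out dcKO Wnt inhibitor 4, alone in lane 3. Single libraries moved the median of the members too. It was 0.18 without control 3 and 0.06 without control 4 in dcKO against control, where 12 members instead of 7 were higher at an unadjusted p under 0.05 without control 3, and 3 without dcKO 4. Without WT vehicle 3, it was 0.17 in dcKO vehicle and 0.25 in dcKO Wnt inhibitor against WT vehicle, and the first of these comparisons then had 7 such members in place of 3, and 0 without WT vehicle 4 or dcKO vehicle 4. In dcKO Wnt inhibitor against WT vehicle, 6 such members in place of 11 were left without WT vehicle 4, dcKO Wnt inhibitor 3 or dcKO Wnt inhibitor 4, and the median without WT vehicle 4 was 0.12. For fits without single libraries, the share of all genes at that threshold is not given. These member counts therefore show only how they depend on single libraries. The median against dcKO vehicle ranged from 0.04 without dcKO Wnt inhibitor 4 to 0.11 without dcKO Wnt inhibitor 2. All untreated libraries came from lane 5 except dcKO 4 from lane 6, so lanes could not be compared there.

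**Figure D4:**
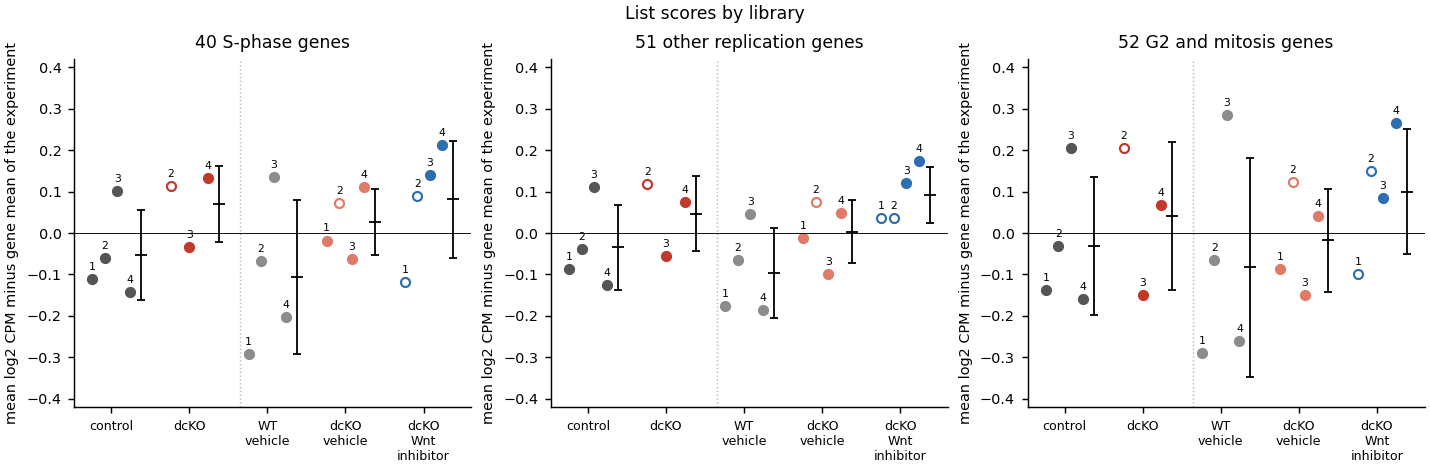
Score of each library for the 40 S-phase genes, 51 other replication genes and 52 G2 and mitosis genes, as mean log2 CPM minus the mean of each gene in the experiment. Circles are libraries with their replicate number, open where a library labelled dcKO has Smarcc1 near the control level, with mean and SD at the right of each group. Groups overlap in each panel, and WT vehicle 3 and control 3 are the highest of their groups.

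Some members varied more between libraries than others. In the treated experiment, Atad2 was at 18.2, 27.4, 47.1 and 25.7 CPM in WT vehicle and at 37.2, 30.1, 41.9 and 42.2 in dcKO vehicle, and at 17.8, 36.1, 38.2 and 41.7 in dcKO Wnt inhibitor. Hells, the remodelling enzyme that works with Cdca7, was at 10.8, 21.2, 37.5 and 20.1, 18, 25.8, 21.4 and 25.5 and 16, 26, 22.2 and 25 in the same groups. In both genes library 1 was the lowest of WT vehicle and of dcKO Wnt inhibitor, and WT vehicle 3 was the highest of all 12. WT vehicle 1 was the lowest of the 12 libraries for 15 of the 40 members. By contrast Pold3, a subunit of polymerase delta, stayed between 56.1 and 65.5 CPM over all 12.

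Other genes of replication, which are not members, gave medians of similar size. Of 51, none was called in any of the 4 comparisons in edgeR, and their medians were 0.09, 0.08, 0.06 and 0.21 in the order above. At an unadjusted p under 0.05, 7, 8, 5 and 16 were higher and 2, 2, 0 and 0 lower. The 52 genes of G2 and mitosis, for comparison, had medians of 0.05, 0.03, 0.10 and 0.15, with none called and 4, 1, 4 and 16 higher at an unadjusted p under 0.05. These counts are those of edgeR. Without the libraries near the control level of Smarcc1, 1, 0, 0 and 4 of the other replication genes were called higher and 1, 1, 0 and 0 lower, and 3, 0, 0 and 3 of the G2 and mitosis genes were called higher and 1, 0, 0 and 0 lower. A difference between the S-phase genes and either list was not tested.

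Whether the dcKO effect on members differed between the untreated and the vehicle libraries was fitted as an interaction over 15 libraries. None of the 40 members, and 0 of all 15999 genes tested (0%), had an adjusted p under 0.05 in edgeR. None of the members had an unadjusted p under 0.05 either, and the smallest was 0.393 (Brip1, 0.22 ± 0.25 higher effect in vehicle). The fit takes the libraries as independent, which their resemblance puts in doubt, and DESeq2 was not run for it.

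The last comparison concerns H3K27me3, the repressive mark set by the Polycomb complex PRC2, at the start sites of the members. Peaks were called by the authors in each library, and 5 of 40 members (12.5%) had a peak within 2000 bp of the start site in at least 2 of the 8 libraries, against 23.1% of 21938 protein-coding genes and 26.1% of the 14293 that were tested in RNA-seq. Per library, 4, 3, 0 and 1 members had a peak in controls 1 to 4 and 3, 1, 2 and 8 in dcKO 1 to 4. The share of all genes was 19.2, 16.2, 5.99 and 13.4% in the controls and 17.8, 4.91, 13.8 and 32.7% in dcKO, so that the library with the most members was also the one with the most genes, dcKO 4. The libraries differed in depth, with 2420911 to 28335352 tags kept, which were 12.3 to 66.5% of their tags. The number of peaks did not follow depth, with 28659 in control 1 (2806857 tags kept) and 8354 in control 4 (28335352). No test was made between the groups.

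E2f8, a repressor of the E2F family, had a peak in 7 of 8 libraries, with a fold enrichment of 5.95, 4.28 and 4.37 in controls 1, 2 and 4 and of 6.18, 3.37, 4.95 and 5.71 in dcKO 1 to 4. Control 3, the library with the fewest tags kept, was the exception. Blm, Cdca7 and Rrm2 had a peak in 3 libraries each and Pola1, the catalytic subunit of polymerase alpha, in 2. For Cdca7 these were control 1 (4.87-fold), dcKO 1 (4.16) and dcKO 4 (3.21), the control and dcKO libraries with the most peaks. Hells had a peak in dcKO 1 alone, Ccne2, Chaf1b and Uhrf1 in dcKO 4 alone, and the other 31 members in no library.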

How the data were processed

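RNA of E17.5 mouse cortex was sequenced on an Illumina platform after TruSeq RNA v2 preparation. The authors aligned reads to mm10 with STAR and deposited one table of counts per gene and library made with featureCounts. H3K27me3 peaks were called by the authors per library with MACS 2.1.0.20140616 in broad mode, and per the file headers each deposited peak has a fold enrichment and a −log10 q-value, at a q limit of 0.1. Genotype tags and sample letters were used as described above.

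Gene IDs were matched to symbols (36602 of 38360 untreated, 48349 of 48709 treated). Counts were filtered with filterByExpr, scaled with TMM and tested with edgeR 4.0.16 (robust quasi-likelihood test) over all genes, with Benjamini-Hochberg adjustment and a threshold of 0.05. One fit held the 7 untreated libraries and another the 12 treated ones. DESeq2 1.42.0 in R 4.3.3 was an alternative, as were other size factors, no filter, single libraries left out, lane and replicate terms. Levels are CPM with TMM factors, and log2 CPM used a prior count of 2. Correlations of deviations between same-numbered libraries were -0.34 to -0.03 for control with dcKO, -0.04 to 0.39 for WT vehicle with dcKO vehicle, -0.19 to 0.43 for WT vehicle with dcKO Wnt inhibitor and -0.11 to 0.22 for dcKO vehicle with dcKO Wnt inhibitor. Not every pair exceeded 0.1 in any of these, so the numbers were not used as pairs. Peaks within 2000 bp of a start site of GRCm38, the assembly of mm10, were counted. Scripts were tested on simulated data.

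The S-phase members, roles and comparison lists were chosen with earlier results of these data known. In each comparison, the members named with all values are the 5 with the smallest p per direction and Mcm5, Pcna, Rrm2, Uhrf1, Clspn and Ccne2. The values of 1 member, of the checkpoint and repair role, are not reported here, though it is in all counts. Input ChIP-seq libraries were not used here.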

Additional observations from a re-analysis of the deposited data

Results flagged for a closer look

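Of 148 groups of 4 libraries examined (members, deleted genes and marker sums), 9 held a library with a gap to its nearest neighbour beyond Dixon's limit, a rule that chance alone meets in about 1 of 20 groups. Among the S-phase genes, Dtl was at 20.6 CPM in control 3, above 17.4 to 17.9 in the other controls, and Ccne2 was at 9.84 CPM in control 2, below 13.7 to 14.2. Mcm5 was at 59.9 CPM in dcKO Wnt inhibitor 4, above 50.2 to 51 in the other inhibitor libraries. Ccne2 was at 6.82 CPM in dcKO Wnt inhibitor 1, below 10.9 to 11.4.

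Smarcc1 was at 242 CPM and Smarcc2 at 692 CPM in the library labelled dcKO vehicle 2, while the other dcKO vehicle libraries lay at 133 to 138 and 425 to 439 CPM. Choroid plexus markers summed to 132 CPM in control 4 against 7.08 to 18.8 in the other controls, and to 130 CPM in WT vehicle 4 against 6.78 to 16.5. Red blood cell markers summed to 256 CPM in dcKO Wnt inhibitor 4, below 305 to 313.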

How the results depend on the processing

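Members called higher numbered 1 in dcKO against control and 3 in dcKO Wnt inhibitor against WT vehicle with DESeq2, against 0 in edgeR, and all genes called numbered 548, 109, 320 and 723 with DESeq2 against 1, 1, 9 and 16 in edgeR. Leaving out single libraries gave 0 to 2, 0 to 1 and 0 to 2 members called higher in dcKO against control, dcKO vehicle against WT vehicle and dcKO Wnt inhibitor against WT vehicle. The values above 0 came without dcKO 2, dcKO vehicle 2 and dcKO Wnt inhibitor 2, when 1994, 562 and 1453 genes were called among all genes tested. With the 3 treated libraries near the WT level of Smarcc1 left out, a choice made after seeing the data, 1 member was called in dcKO vehicle and 2 in dcKO Wnt inhibitor against WT vehicle, the median in dcKO Wnt inhibitor against dcKO vehicle was 0.16, and among the members named by rule in each comparison signs changed for Pcna (-0.030, dcKO vehicle against WT vehicle), Rrm2 (0.078) and Usp1 (0.066, both against dcKO vehicle), and Blm (0.041) and Brip1 (0.16, both against WT vehicle). With lane as a term, Uhrf1 was at -0.097 against dcKO vehicle and Ccne2 at -0.081 against WT vehicle. The causes were not tested.

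With replicate numbers as a replicate block, 0 members were called in any comparison, 0, 5, 7 and 189 genes were called in all, and Clspn turned to -0.040 in dcKO against control. Without single libraries, signs changed within these ranges. In dcKO against control, Gmnn ranged from -0.30 to 0.069, Rrm2 from -0.11 to 0.14 and Clspn from -0.043 to 0.14. In dcKO vehicle against WT vehicle, Pcna ranged from -0.029 to 0.11, Nasp from -0.14 to 0.028, Gmnn from -0.13 to 0.12, Ccne2 from -0.51 to 0.12, Rrm2 from -0.12 to 0.085 and Clspn from -0.046 to 0.088. In dcKO Wnt inhibitor against WT vehicle, Ccne2 ranged from -0.21 to 0.42, Rrm2 from -0.18 to 0.020, Blm from -0.13 to 0.14, Casp8ap2 from -0.31 to 0.083 and Brip1 from -0.17 to 0.12. Against dcKO vehicle, Uhrf1 ranged from -0.091 to 0.10 and Rrm2 from -0.12 to 0.013.

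For H3K27me3, a q under 0.01 left 1 of 40 members with a peak in control 2, 0 in dcKO 2, 1 in dcKO 3 and 5 in dcKO 4, against 11.1, 3.54, 11.7 and 26.3% of all genes. A window of 500 bp left 0 in control 4, 1 in dcKO 3 and 5 in dcKO 4 (10.7, 11.4 and 27.4% of all genes), a window of 5000 bp gave 2 in dcKO 2 (7.79%), and 9 members had a peak in at least 1 library (22.5%, against 36.6%).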
